A study of Mus musculus with 2 samples.

Results

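The Hedgehog and parathyroid hormone-related protein (PTHrP) genes of the growth plate were followed through fetal femoral bone marrow cells. The 9 genes are a list of names, with no limit on their values in the rule: the ligand gene *Ihh*, the receptor gene *Ptch1*, the signal transducer *Smo*, the decoy receptor gene *Hhip*, the transcription factor genes *Gli1*, *Gli2* and *Gli3*, the second ligand gene *Pthlh*, which encodes PTHrP, and its receptor gene *Pth1r*. All 9 had UMIs in both libraries, which together hold 22652 genes.

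In the growth plate, chondrocytes pass from a resting pool through dividing columns to hypertrophic cells, which make type X collagen (*Col10a1*). Cells that leave division make Indian hedgehog. Without Hedgehog protein, Ptch1 holds Smo inactive. With it, Smo signals through the primary cilium to the Gli factors, of which Gli1 and Gli2 mainly activate and Gli3 mainly represses target genes. *Ptch1*, *Hhip* and *Gli1* are themselves targets. Hedgehog signalling also sustains PTHrP in resting and periarticular chondrocytes, and PTHrP acts on its receptor to delay hypertrophy, which closes the loop.

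Both libraries hold femoral bone marrow cells of mouse embryos at E18.5, from which lineage-committed blood cells had been removed with magnetic beads. The study used C57BL/6 mice for wild-type marrow and states a predominantly C57BL/6 background for its mutant lines. One genotype was wild type (WT). The other, labelled Bmx-CreER Wls, carried a tamoxifen-inducible Cre driven by *Bmx*, a gene of arterial endothelial cells, with a conditional allele of *Wls*, which cells need to release Wnt proteins. The study gave tamoxifen to pregnant females of this line, but its text does not describe the Bmx-CreER Wls single-cell library. The treatment of the embryos in that library is therefore not stated. For the WT library the study names neither litter nor tamoxifen. With 1 library per genotype, genotype and library cannot be told apart, and no test between them was possible. Intervals are 95% intervals of the counts and cover counting error only.

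The WT library held 5998 barcodes and 22708005 unique molecular identifiers (UMIs, 1 per captured transcript), and the Bmx-CreER Wls library 6825 barcodes and 24704991 UMIs. After filtering, 5736 and 6620 cells remained with medians of 3128 and 3067 UMIs, and 48 barcodes occurred in both libraries. In the *Gja5*-led arterial endothelial-like cluster, *Wls* had 10 UMIs in WT and 3 in Bmx-CreER Wls, a ratio of 0.264 (0.0466 to 1.02). In the *Fabp4*-led endothelial-like cluster it had 74 and 39 UMIs (ratio 0.597, 0.394 to 0.892). It was lower too in the *Clec3b*-led stromal cluster (0.740, 0.657 to 0.833) and in the *Mmp13*-led cluster (0.754, 0.655 to 0.866). Its ratio in chondrocyte-like cells was 0.984 (0.907 to 1.07). The counts do not show which exon a read came from, so they check the deletion only in part. *Bmx* had 0 UMIs in the chondrocyte-like cells of both libraries. *Col2a1*, the collagen gene of cartilage, was at 801 UMIs per 1000000 UMIs (CPM) in WT and 1142 CPM in Bmx-CreER Wls haematopoietic clusters (led by *Mpo*, *Ctsk* and *Lyz2*), a background of cartilage RNA that was 1.43-fold higher in the second library.

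Clusters were rebuilt here from both libraries together, without the 9 genes or other genes of the pathway among those used for clustering, and are called by their leading gene. They are not the clusters of the study, and a difference from it can come from these names. Chondrocyte-like cells, defined by 9 cartilage markers, were 2626 WT cells (45.8%) and 4357 Bmx-CreER Wls cells (65.8%), and were divided again into 11 zones. The *Col10a1*-led zone carried markers of hypertrophic chondrocytes, with *Col10a1*, *Panx3*, *Ibsp* and *Alpl* among its 10 leading genes, and held 371 WT and 399 Bmx-CreER Wls cells. The *Top2a*-led zone carried cycling markers, the *Prg4*-led zone markers of the joint surface, and the *Jun*-led zone was led by stress and immediate-early genes (*Jun*, *Fosb*, *Hspa1b*). Outside cartilage, the *Mmp13*-led cluster held 188 of the 202 WT cells that the study lists as OLCs-1 and 101 of the 102 listed as OLCs-2, its osteolineage cells. Its own leading 10 genes hold 3 listed markers of hypertrophic chondrocytes and 2 of osteolineage cells, so it is called by its leading gene alone. The *Clec3b*-led cluster held 824 of the 940 listed eBMSC-1 cells and the *Hbegf*-led cluster all 149 listed eBMSC-2 cells, the embryo-enriched stromal populations.

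The genes lie at separate places in the GRCm38 genome: *Ihh* at chr1:74945315-74951672 and *Gli2* at chr1:118834132-119053619 on the minus strand, *Smo* at chr6:29735503-29761365 on the plus strand and *Pthlh* at chr6:147252101-147264183 on the minus strand, *Hhip* at chr8:79965851-80058006, *Pth1r* at chr9:110722085-110747145 and *Gli1* at chr10:127329882-127341974 on the minus strand, and *Gli3* at chr13:15463235-15730026 on the plus and *Ptch1* at chr13:63508328-63573598 on the minus strand. RefSeq promoter windows (GRCm38.p6, from 250 bases before a transcript start to 50 after it) were at hand for 8 of the 9 genes, in 10 windows. None of the 10 held the Gli-binding letters TGGGTGGTC, or the shorter GGGTGGTC that these contain, exactly on either strand. Of 32851 windows of that length, 0.253% held the longer and 0.807% the shorter form exactly, and 22.1% held the shorter form with at most 1 mismatch. Among the 10 windows, those of *Ihh*, *Gli2* and *Hhip* held the shorter form with 1 mismatch. The 250 bases before the start are printed for *Ptch1* and *Hhip*, the target genes whose levels in cartilage differed most between the libraries. Capitals mark a place within 1 mismatch of the shorter form, which occurs in *Hhip* on the opposite strand with its first base 160 bases before the start (position -160), and nowhere in the *Ptch1* stretch.
Ptch1 (chr13:63565736-63565985, minus strand): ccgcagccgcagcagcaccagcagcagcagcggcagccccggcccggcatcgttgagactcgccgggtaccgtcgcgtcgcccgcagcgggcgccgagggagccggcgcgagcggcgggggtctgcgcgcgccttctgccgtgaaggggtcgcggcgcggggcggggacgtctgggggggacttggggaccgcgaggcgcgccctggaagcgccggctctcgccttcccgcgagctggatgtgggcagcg
Hhip (chr8:80058009-80058258, minus strand): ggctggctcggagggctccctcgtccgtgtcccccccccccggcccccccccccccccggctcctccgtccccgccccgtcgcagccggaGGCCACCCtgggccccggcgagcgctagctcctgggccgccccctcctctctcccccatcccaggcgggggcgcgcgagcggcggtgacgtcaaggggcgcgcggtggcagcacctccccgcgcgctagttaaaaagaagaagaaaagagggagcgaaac
These letters describe the windows alone. The *Ptch1* window belongs to a transcript start inside the annotated gene, and no binding was measured.

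The first question was which cells carried each ligand and receptor. *Ihh* transcripts were almost confined to the zone led by *Col10a1*. Of 1953 *Ihh* UMIs in WT, 1884 lay in the *Col10a1*-led zone (96.5%), and of 2247 in Bmx-CreER Wls, 2178 did (96.9%). Its level there was 773 CPM (738 to 808) in WT and 791 CPM (758 to 825) in Bmx-CreER Wls, and *Ihh* was on average 242-fold and 246-fold higher in this zone than in the remaining chondrocyte-like cells. The next unit in both libraries was the *Mmp13*-led cluster at 20.4 CPM (13.8 to 28.9) and 19.5 CPM (11.7 to 30.5), with intervals that overlapped that of the *Jun*-led zone in each library. *Ihh* was at 0 UMIs in the *Col8a1*-led zone of both libraries, where a count of 0 allows up to 8.59 and 7.34 CPM. At least 1 *Ihh* UMI was found in 80.3% (75.9 to 84.2) and 85.5% (81.6 to 88.8) of cells of the *Col10a1*-led zone, against 0.279% and 0.213% of haematopoietic cells, whose median depths were 7028 and 6844 UMIs against 6506 and 6654 in the zone. With each cell thinned to 1000 UMIs, the shares in the zone were 43.6% and 49.4% and those in haematopoietic cells 0%.

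*Pthlh* lay elsewhere. It had 0 UMIs in the *Col10a1*-led zone of either library, which allows up to 1.23 and 1.09 CPM. Its highest level was in the *Col8a1*-led zone, whose leading genes include the reserve chondrocyte marker *Sfrp5*, at 63.0 CPM (39.5 to 95.4, 22 UMIs) in WT and 171 CPM (134 to 216, 70 UMIs) in Bmx-CreER Wls. In WT the interval overlapped that of the *Hbegf*-led cluster at 46.8 CPM (31.8 to 66.5, 31 UMIs). It also overlapped those of the *Serpina3n*-led zone at 34.0 CPM (19.8 to 54.4, 17 UMIs) and the *Thbs2*-led zone (5.55 to 39.9, 5 UMIs). The order of these units in WT was thus not resolved. In Bmx-CreER Wls the *Col8a1*-led zone stood clear of the next unit, the *Top2a*-led zone at 30.4 CPM (23.9 to 38.0). These cells were a small part of the source, since the *Col8a1*-led zone held 14.5% of all *Pthlh* UMIs in WT and 21.5% in Bmx-CreER Wls, and the rest was spread over cycling, superficial and other zones. The *Hbegf*-led cluster held 20.4% and 5.52%. A UMI of *Pthlh* was found in 10.4% (6.19 to 16.2) and 22.9% (16.7 to 30.04) of cells of the *Col8a1*-led zone, or 5.73% and 12.7% after thinning, and in 0.279% and 0.213% of the deeper haematopoietic cells.

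*Pth1r* was highest in the *Col10a1*-led zone and the *Mmp13*-led cluster, which holds most listed osteolineage cells but also carries markers of hypertrophic chondrocytes. The *Col10a1*-led zone reached 1202 CPM (1159 to 1246) in WT and 1066 CPM (1028 to 1105) in Bmx-CreER Wls, and held 72.3% and 76.3% of the *Pth1r* UMIs. The *Mmp13*-led cluster came next at 424 CPM (392 to 458) and 449 CPM (408 to 493), with 15.9% and 11.4% of the UMIs, and neither interval met that of any other unit. All other units were below 150 CPM. Within the *Mmp13*-led cluster, 69.2% and 75.0% of cells had a *Pth1r* UMI, and 33.3% and 28.1% after thinning, against 1.12% and 1.28% of haematopoietic cells.

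The genes that receive and answer Hedgehog were broader and, *Ptch1* apart, were lowest among the zones where *Ihh* was highest. In WT, *Gli1* was highest in the *Col8a1*-led zone at 120 CPM (86.7 to 163), and lay between 47 and 73 CPM in most other zones, whose intervals overlapped. It was 18.04 CPM (13.1 to 24.2) in the *Col10a1*-led zone, 0.276 times its level in the other chondrocyte-like cells (0.320 times in Bmx-CreER Wls). *Hhip* was lower still, with 4 UMIs in WT and 2 in Bmx-CreER Wls in that zone, against 42 and 26 in the *Col8a1*-led zone. *Smo* and *Gli3* were detected in all zones of both libraries and were 0.35 and 0.46 times as high in the *Col10a1*-led zone as in the others in WT. *Gli2* had 7 and 10 UMIs there. *Ptch1* did not share this pattern: its level in the *Col10a1*-led zone was 15.2 CPM (10.7 to 20.9) and 15.3 CPM (10.99 to 20.6). It was 0.960 times (0.639 to 1.41) the level in the other chondrocyte-like cells in WT and 2.62 times (1.74 to 3.91) in Bmx-CreER Wls, where those other cells had 5.83 CPM against 15.8 CPM in WT. *Ptch1* is sparse, with 188 UMIs in WT and 135 in Bmx-CreER Wls, so its order among zones is not resolved.

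**Figure D1:**
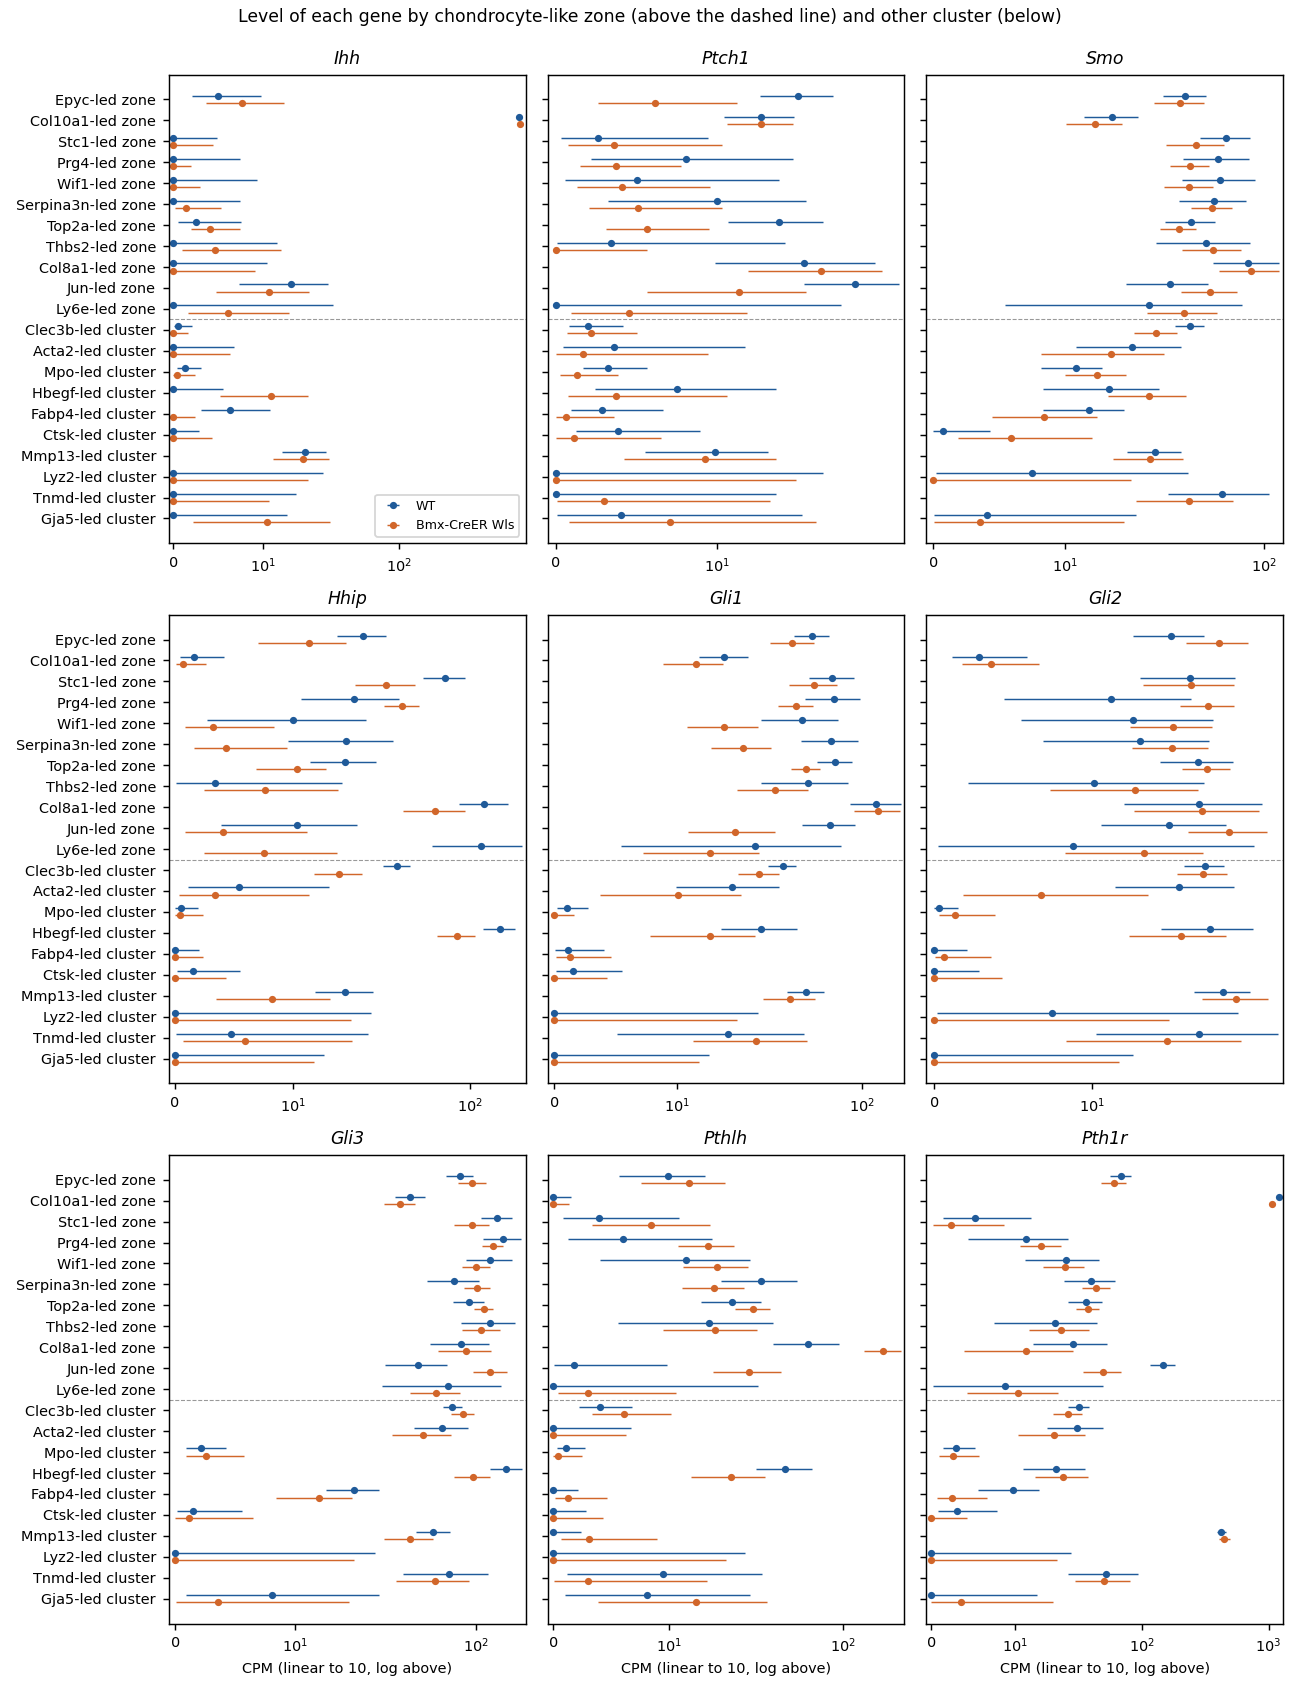
Level of each gene in CPM (axis linear to 10 and logarithmic above) in 11 chondrocyte-like zones and 10 other clusters, in the WT library (blue) and the Bmx-CreER Wls library (orange). Points are levels and bars are 95% Poisson intervals. *Ihh* stands at 773 and 791 CPM in the *Col10a1*-led zone, where *Pthlh* is at 0.

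To follow hypertrophy without the zones, chondrocyte-like cells were thinned to 1000 UMIs and put in 4 ranges of *Col10a1* UMIs. Thinning left out 60 WT and 133 Bmx-CreER Wls cells that were too shallow. The class was itself chosen by cluster, so the ranges do not cover all cells with *Col10a1*. They leave out the *Mmp13*-led cluster, where *Col10a1* was at 4405 CPM in WT and 4122 CPM in Bmx-CreER Wls. *Gli1* was at 49.96 and 41.07 CPM in that cluster. The ranges are parts of a continuum, and their limits run through groups of cells: 2357 WT and 4019 Bmx-CreER Wls cells, most of them with no *Col10a1* UMI, lay within 1 UMI of the lowest limit, 18 and 14 cells within 1 UMI of the limit at 4, beside 39 and 57 cells in the range of 4 to 15, and 4 and 6 cells within 1 UMI of the limit at 16. The share of cells with an *Ihh* UMI was 1.86% and 1.80% at 0 *Col10a1* UMIs, 23.9% and 22.0% at 1 to 3, 64.1% and 57.9% at 4 to 15 and 55.2% and 58.5% at 16 or more. *Ihh* was thus near its highest share in cells of intermediate *Col10a1*, and the intervals of the upper ranges overlapped. *Pth1r* shares from 1 *Col10a1* UMI upward were 29.6% and 18.7%, then 56.4% (39.6 to 72.2) and 64.9% (51.1 to 77.1), then 81.8% (74.5 to 87.8) and 80.0% (72.1 to 86.5), with no overlap between the upper ranges in WT and an overlap in Bmx-CreER Wls. At 0 *Col10a1* UMIs they were 5.53% and 4.13%. In the opposite direction, *Gli1* was found in 5.92% (4.996 to 6.96) and 3.78% (3.20 to 4.42) of cells with no *Col10a1* UMI and in none of the 143 WT and 130 Bmx-CreER Wls cells with 16 or more, which allows up to 2.10% and 2.31%. *Hhip* and *Pthlh* had 0 cells there too. Their shares at 0 *Col10a1* UMIs were 2.94% and 1.57% for *Hhip* and 1.51% and 1.98% for *Pthlh*, of which the WT share of *Hhip* alone (2.29 to 3.71) exceeded the limit that a count of 0 allows. The 2 libraries gave the same course for *Ihh* and *Pth1r*, with overlapping intervals in each of the 4 ranges for *Ihh*.

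**Figure D2:**
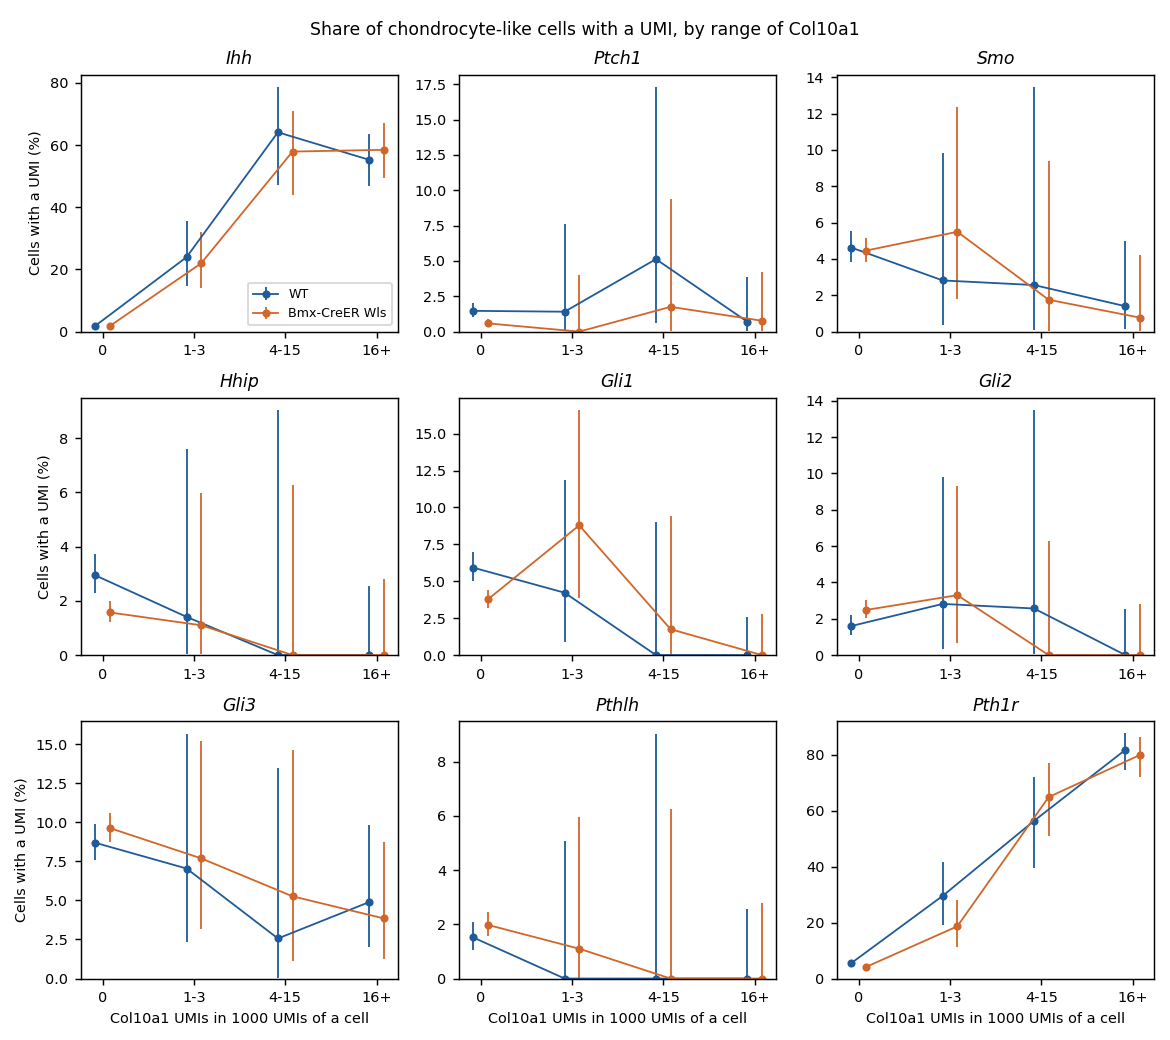
Percent of chondrocyte-like cells with at least 1 UMI of each gene (vertical axes) in 4 ranges of *Col10a1* UMIs among 1000 UMIs of a cell (horizontal axes), for WT (blue) and Bmx-CreER Wls (orange), with 95% Clopper-Pearson bars. *Ihh* and *Pth1r* reach 55.2% and 81.8% of WT cells in the highest range, where *Gli1*, *Hhip*, *Gli2* and *Pthlh* are at 0.

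The ligand *Ihh* and the receptor *Pth1r* met in the same cells. Among thinned chondrocyte-like cells with an *Ihh* UMI, 67.1% (110 of 164) in WT and 62.5% (125 of 200) in Bmx-CreER Wls also had a UMI of *Pth1r*, against 7.41% and 4.87% of cells without *Ihh*. Most of this difference was that of the zone: inside the *Col10a1*-led zone the shares were 68.8% and 63.3% with *Ihh* and 47.8% and 45.8% without. No thinned cell had both ligands, 0 of 164 and 0 of 200 *Ihh* cells having a *Pthlh* UMI, where 1.46% and 1.96% of cells without *Ihh* had one. A count of 0 allows up to 1.83% and 1.5%, so in WT the shares could not be told apart at this depth, and in Bmx-CreER Wls the exact interval of the 0 count (0 to 1.83) overlapped that of the share without *Ihh* (1.56 to 2.44). *Pthlh* cells had a *Gli1* UMI in 11.4% (4 of 35, 3.20 to 26.7) in WT and 8.86% (7 of 79, 3.64 to 17.4) in Bmx-CreER Wls, with intervals that held the 5.37% and 3.64% of cells without *Pthlh*.

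Over 42 profiles (21 clusters and zones in each of 2 libraries), the genes most like *Ihh* in log2(CPM + 10) were *R3hdml* (Pearson r = 0.951), *Corin* (0.934) and *Vnn1* (0.916). For *Pth1r* they were *Sp7* (0.893), the osteoblast transcription factor, *Panx3* (0.880) and *Vdr* (0.878), the vitamin D receptor. *Gli1* was most like *Uggt2* (0.869), *Ppp1r26* (0.865) and *Islr* (0.864), and *Pthlh* most like *Rbpjl* (0.760), *Abcb9* (0.735) and *Chrdl2* (0.729). Among the 9 genes, *Ihh* and *Pth1r* were alike (0.786), as were *Gli1* and *Smo* (0.864) and *Gli1* and *Gli3* (0.830). The profiles share libraries and depth, and these values are descriptions over 12481 genes ranked.

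In the WT cells that carry the labels of the study, *Pth1r* was high in osteolineage cells and in the 25 listed aBMSC cells. It was low in the embryo-enriched stroma. It was 328 CPM (288 to 373, 239 UMIs) in OLCs-1 and 471 CPM (418 to 529, 286 UMIs) in OLCs-2, and 421 CPM (315 to 551, 53 UMIs) in the 25 aBMSC cells, against 395 CPM (374 to 417) in listed chondrocytes, 32.2 CPM (26.0 to 39.4) in eBMSC-1 and 17.3 CPM (7.46 to 34.0) in eBMSC-2. OLCs-2 were thus above OLCs-1 beyond counting error. The 53 *Pth1r* UMIs of aBMSC came from 12 cells. By cluster, 13 of the 25 aBMSC cells lay in the *Mmp13*-led cluster and 12 in the *Clec3b*-led cluster. *Gli1* was 63.2 CPM (46.3 to 84.3) in OLCs-1 and 34.6 CPM (21.4 to 52.9) in OLCs-2, with overlapping intervals, and 51.8 CPM (44.3 to 60.2) in listed chondrocytes. Among these labels, *Hhip* and *Pthlh* were highest in eBMSC-2. *Hhip* was 173 CPM (137 to 215, 80 UMIs) there against 39.7 CPM (32.8 to 47.6) in eBMSC-1 and 26.0 CPM (20.8 to 32.2) in listed chondrocytes. *Pthlh* was 66.95 CPM (45.5 to 95.03, 31 UMIs) in eBMSC-2, 4.45 CPM (2.37 to 7.60) in eBMSC-1 and at 0 UMIs in OLCs-1 and OLCs-2, which allows up to 4.12 and 4.94 CPM. The rebuilt *Col8a1*-led zone of WT had *Hhip* at 120 CPM (86.7 to 163) and *Pthlh* at 63.0 CPM (39.5 to 95.4). Both intervals overlapped those of eBMSC-2. A *Hhip* UMI was present in 32.9% (25.4 to 41.0) of eBMSC-2 cells and 13.4% after thinning, against 0.558% of haematopoietic cells in WT and 0.142% after thinning. *Ihh* had 0 UMIs in eBMSC-2 and OLCs-2, 1 in eBMSC-1 and 3 in OLCs-1. The other 8 genes had at most 9 UMIs each in the aBMSC cells.

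**Figure D3:**
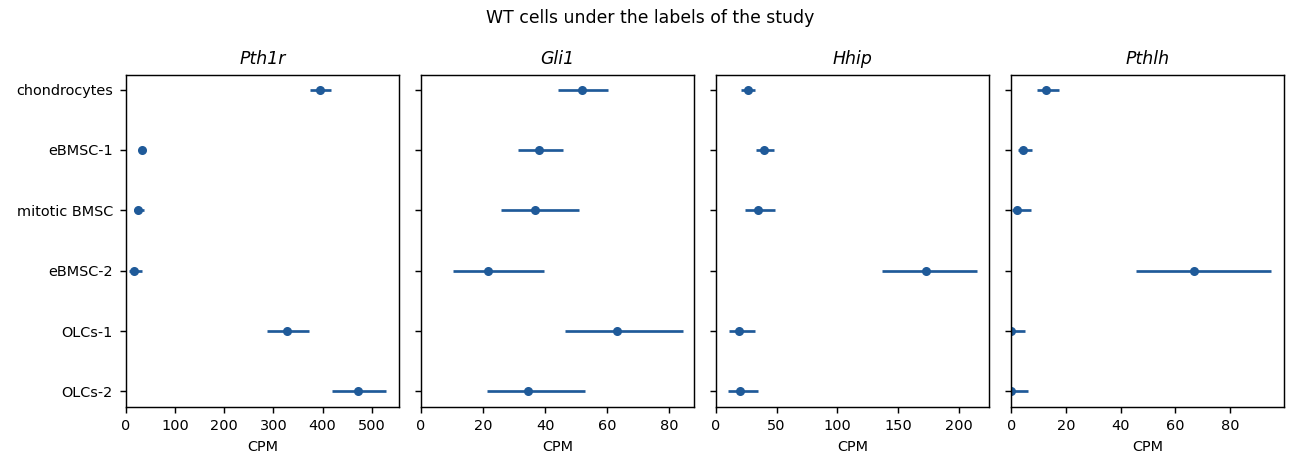
Levels in CPM of *Pth1r*, *Gli1*, *Hhip* and *Pthlh* in WT cells grouped by the labels of the study (linear axes, points with 95% Poisson bars), without the 25 aBMSC cells. *Pth1r* is at 328 and 471 CPM in OLCs-1 and OLCs-2, and *Hhip* and *Pthlh* are highest in eBMSC-2, at 173 and 66.95 CPM.

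The comparison of the libraries asks how the loop looked in embryos of the line in which Cre targets *Wls* in arterial endothelial cells. In chondrocyte-like cells, the Hedgehog target genes were lower in Bmx-CreER Wls and *Pthlh* was higher. Of the 9 genes, 5 differed by at least 1.5-fold, 1 higher and 4 lower, with a median log2 ratio of -0.49. Among all 11411 genes with at least 50 UMIs, 8.44% did, with a median of 0.01. *Ptch1* had 136 UMIs in WT (15.6 CPM, 13.1 to 18.49) and 109 in Bmx-CreER Wls (7.65 CPM, 6.28 to 9.22), a ratio of 0.489 (0.377 to 0.634). *Hhip* had 209 UMIs (24.0 CPM) and 198 (13.9 CPM), a ratio of 0.578 (0.474 to 0.706). *Gli1* had 454 UMIs (52.2 CPM) and 491 (34.4 CPM), a ratio of 0.660 (0.580 to 0.752). In each of these 3 genes the intervals of the libraries did not overlap. *Pthlh* had 99 UMIs (11.4 CPM, 9.25 to 13.9) and 283 (19.9 CPM, 17.6 to 22.3), a ratio of 1.74 (1.38 to 2.22). *Gli2* was higher by less than that fold, at 16.2 and 23.1 CPM (ratio 1.42, 1.17 to 1.75), *Gli3* was at 80.6 and 92.1 CPM (1.14, 1.04 to 1.25) and *Smo* at 40.6 and 39.2 CPM (0.967, 0.844 to 1.11). The few UMIs in haematopoietic clusters were also fewer in Bmx-CreER Wls. *Ptch1* had 17 and 4 there (3.30 CPM, 1.92 to 5.29, and 1.21 CPM, 0.329 to 3.09). *Gli1* had 6 and 0, *Hhip* 4 and 1 and *Pthlh* 4 and 1. The part of such a background in the cartilage ratios was not tested.

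*Ihh* and *Pth1r* were lower over the whole class too, at 219 and 155 CPM (ratio 0.710, 0.668 to 0.755) and at 370 and 231 CPM (0.623, 0.594 to 0.654). The makeup of the class moved with them. The *Col10a1*-led zone held 28.0% of the class UMIs in WT and 19.3% in Bmx-CreER Wls, and the *Epyc*-led zone 18.6% and 9.14%, while the *Prg4*-led zone held 5.69% and 13.04%. Within the *Col10a1*-led zone, *Ihh* had a ratio of 1.02 (0.962 to 1.09) and *Pth1r* one of 0.887 (0.842 to 0.934). When each zone was given the same weight in both libraries, an alternative added after seeing the data, the ratio of *Ihh* was 1.03 (0.967 to 1.09) and that of *Pth1r* 0.878 (0.836 to 0.922).

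The target genes and *Pthlh* kept their differences under shared zone weights. *Ptch1* had a ratio of 0.578 (0.446 to 0.748), *Hhip* 0.543 (0.441 to 0.667), *Gli1* 0.642 (0.562 to 0.733), *Gli2* 1.41 (1.15 to 1.73) and *Pthlh* 1.596 (1.26 to 2.02), so 4 of the 9 genes passed 1.5-fold where 6.25% of all genes did. *Gli1* was lower in 9 of the 10 zones with at least 20 UMIs, and its interval lay below 1 in 5. *Hhip* was lower in 4 of 5 zones and *Ptch1* in 3 of 4, with the interval below 1 in each of these. *Gli2* was higher in 8 of 8 zones, with the interval above 1 in 2, and *Pthlh* in 6 of 7, with the interval above 1 in 2.

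The zones differed in how far the targets moved. In the *Epyc*-led zone, *Ptch1* had 35 and 8 UMIs (ratio 0.284, 0.114 to 0.623), *Hhip* 40 and 16 (0.497, 0.260 to 0.908) and *Gli1* 87 and 55 (0.786, 0.550 to 1.11). In the cycling *Top2a*-led zone, *Ptch1* had 21 and 14 UMIs (0.314, 0.148 to 0.648), *Hhip* 23 and 26 (0.533, 0.292 to 0.978) and *Gli1* 84 and 123 (0.691, 0.519 to 0.923). All 3 targets were therefore lower in both zones, though the interval of *Gli1* held 1 in the first. In the *Serpina3n*-led zone, which carried the reserve chondrocyte marker *Ucma*, *Gli1* had 34 and 31 UMIs (0.333, 0.198 to 0.559). The *Col8a1*-led zone was the exception for *Gli1*, with 42 and 50 UMIs (1.02, 0.662 to 1.57), although *Hhip* was lower there (42 and 26 UMIs, 0.529, 0.311 to 0.883). The exception for *Hhip* was the *Prg4*-led zone, with 11 and 77 UMIs (1.86, 0.986 to 3.89). In the *Col10a1*-led zone *Ptch1* had 37 and 42 UMIs (1.01, 0.631 to 1.61).

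The higher level of *Pthlh* was uneven. In the *Col8a1*-led zone it had 22 and 70 UMIs, a ratio of 2.72 (1.66 to 4.61). Among zones with at least 20 UMIs, the exception was the *Serpina3n*-led zone, where *Pthlh* was lower in Bmx-CreER Wls. It was at 34.0 CPM (19.8 to 54.4, 17 UMIs) in WT and 18.3 CPM (11.8 to 26.98, 25 UMIs) in Bmx-CreER Wls, with overlapping intervals. In the *Jun*-led zone *Pthlh* had 1 and 21 UMIs. That zone also held 15 of the *Gli1* UMIs of Bmx-CreER Wls against 38 in WT (0.306, 0.156 to 0.570), and its median depth was 4508 and 3599 UMIs. The part of its stress genes in these values was not tested. Without the *Jun*-led zone the ratios over the class were 1.61 for *Pthlh*, 0.688 for *Gli1*, 0.523 for *Ptch1* and 0.578 for *Hhip*, so *Gli1* no longer passed 1.5-fold.

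**Figure D4:**
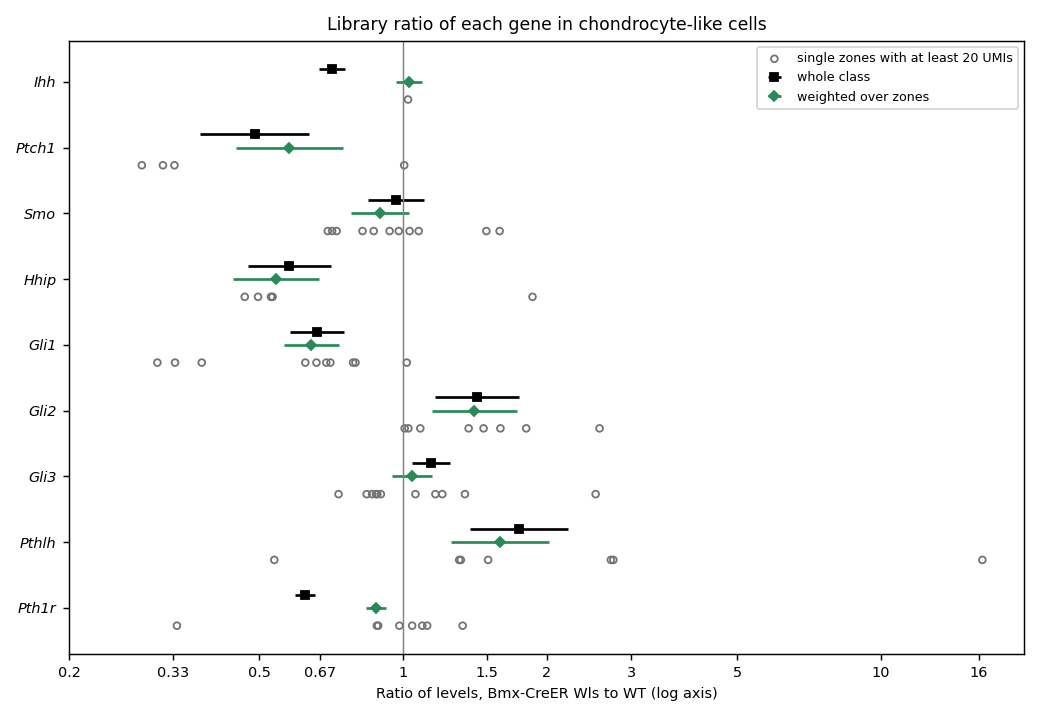
Ratio of the level in Bmx-CreER Wls to that in WT in chondrocyte-like cells (log axis, 1 means equal levels) for the 9 genes. Black squares are the whole class, green diamonds give each zone the same weight in both libraries (both with 95% intervals), and open circles are single zones with at least 20 UMIs. *Ihh* moves from 0.710 to 1.03 with shared zone weights, while *Ptch1*, *Hhip* and *Gli1* stay between 0.543 and 0.642 and *Pthlh* stays at 1.596.

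Outside cartilage, several of the genes were lower in Bmx-CreER Wls beyond counting error. In the *Clec3b*-led stromal cluster *Hhip* had 134 and 42 UMIs (38.6 and 18.3 CPM, ratio 0.473, 0.326 to 0.674), 1 of 6 genes with at least 50 UMIs past 1.5-fold, where 11% of all genes were, so that the count itself is near the background. *Gli1* had 130 and 64 UMIs there (0.744, 0.542 to 1.01) and *Smo* 147 and 66 (0.678, 0.499 to 0.913). In the *Hbegf*-led cluster *Hhip* had 97 and 67 UMIs (0.575, 0.415 to 0.793), and *Pthlh*, higher in cartilage, was lower here, with 31 and 18 UMIs (0.483, 0.255 to 0.891). *Gli3* was lower in that cluster too, with 98 and 77 UMIs (0.654, 0.479 to 0.891). In the *Mmp13*-led cluster 0 of 6 genes passed 1.5-fold, against 10.2% of all genes. There *Pth1r* had a ratio of 1.06 (0.935 to 1.20), *Gli1* of 0.822 (0.546 to 1.22) and *Gli2* of 1.14 (0.736 to 1.74), while *Hhip*, with 30 and 8 UMIs, was under the minimum of 50 (0.417, 0.165 to 0.930). In the *Col10a1*-led zone 0 of 6 genes passed it, against 10.3% of all genes. *Col2a1* was 1.46-fold (*Mmp13*-led cluster) and 1.72-fold (*Clec3b*-led cluster) higher in Bmx-CreER Wls. How much of it was a background of cartilage RNA was not tested, nor was the part of such a background in the ratios.

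Of 47 other genes of the pathway, 45 were in the tables, and 41 had at least 50 UMIs in chondrocyte-like cells, of which 4 were at least 1.5-fold higher and 1 lower in Bmx-CreER Wls, a share near the 8.44% of all genes. Their median log2 ratio was 0.11. Among 4 genes of ligand release, none passed 1.5-fold, and the most abundant, *Scube3*, a secreted carrier of Hedgehog, had a ratio of 1.25 (1.16 to 1.34). Among 5 genes of reception, *Boc*, a coreceptor, was higher at 79.4 and 132 CPM (1.66, 1.52 to 1.82), and the most abundant, the glypican gene *Gpc3*, had a ratio of 1.17 (1.14 to 1.19). Among 10 transduction genes, the kinase gene *Stk36* was higher on 23 and 71 UMIs (1.88, 1.16 to 3.16), and *Spop* had a ratio of 1.21 (1.13 to 1.30). None of the genes of release, reception and transduction was at least 1.5-fold lower.

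Among 12 genes that carry the PTHrP signal, *Gnas*, the stimulatory G protein subunit, was at 36.1 and 55.9 CPM (1.55, 1.36 to 1.77) and *Rgs2* at 42.8 and 81.8 CPM (1.91, 1.70 to 2.16), and *Prkar1a*, a protein kinase A subunit, had a ratio of 1.08 (1.02 to 1.14). *Gnas* was at only 3.89 and 4.83 CPM in haematopoietic clusters. Reads of overlapping genes cannot be told apart in these counts, so the level of *Gnas* may be incomplete. Among 10 effectors and regulators of hypertrophy, *Runx2*, a driver of hypertrophy, was lower at 122 and 73.2 CPM (0.602, 0.552 to 0.657), and the cell cycle inhibitor gene *Cdkn1c* had a ratio of 0.916 (0.902 to 0.929). With shared zone weights only *Stk36* stayed past 1.5-fold of these 5, at 1.59 (0.963 to 2.61), with *Scube1* now past it as well at 1.65 (1.43 to 1.91), and *Boc* at 1.33, *Gnas* at 1.24, *Rgs2* at 1.39 and *Runx2* at 0.837.

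Between zones, the other genes of the pathway went partly with *Ihh* and partly with the genes of the receiving side. *Boc* and *Gas1*, coreceptors of Hedgehog, were 0.0187 and 0.0150 times as high in the *Col10a1*-led zone as in the other chondrocyte-like cells in WT (0.0268 and 0.0326 times in Bmx-CreER Wls), and *Cdon* 0.101 times. *Scube1* was 12.5-fold and 14.4-fold higher in the zone, *Mef2c*, a transcription factor of hypertrophy, 8.999-fold and 9.70-fold, and *Runx2* 3.62-fold and 8.65-fold. Within the zone, *Scube1* was also higher in Bmx-CreER Wls, at 97.6 and 163 CPM (1.67, 1.42 to 1.96), as were *Gas1* on 16 and 51 UMIs (2.82, 1.58 to 5.30), *Evc2* on 36 and 63 (1.55, 1.01 to 2.40) and *Gnas* on 31 and 58 (1.66, 1.05 to 2.65), 4 of the 32 genes with at least 50 UMIs there, a share near the 10.3% of all genes.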

How the data were processed

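Femoral Lin- bone marrow cells of E18.5 WT and Bmx-CreER Wls embryos were profiled in 2 BD Rhapsody whole-transcriptome libraries. The authors deposited raw UMI counts per gene and cell barcode, and no normalized values were used. The submitters' processing notes name bcl2fastq 2.19.1.403, UMI-tools 1.0.1, STAR 2.7.1a, featureCounts 1.6.4 and the mm10 build. The gene annotation and strand setting of the counting are not given in the sources used here, so reads of overlapping genes cannot be told apart.

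Barcodes passed with a gene number above 200 and below 5000 and a mitochondrial share below 30%, the filter of the study. Counts were scaled to 10000 per cell and clustered over both libraries (scanpy 1.11.5, 11 principal components, 20 neighbours, Leiden resolution 0.5), without cell cycle genes, the 9 genes or the pathway list among the variable genes. Clusters in which 9 chondrocyte markers made up at least 2% of UMIs formed the chondrocyte-like class, which was clustered again to give zones. The word "like" is used only where listed markers lead a cluster. The *Hbegf*-led and *Mmp13*-led clusters carry no such name, and are described by the WT cells of the study that they hold. Doublets were kept. Scrublet called 38 WT cells (0.662%) and 0 Bmx-CreER Wls cells, so it did not separate doublets in the second library. WT labels came from the study's supplementary lists, joined by barcode: 1999 cells of the list of all cells, which is shortened in the copy used, and 1649 BMSCs, each with a UMI total within 1% of the listed one.

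Levels are summed UMIs per 1000000 UMIs of the unit (CPM). Intervals are exact Poisson (levels), Clopper-Pearson (shares) and conditional binomial (ratios) 95% intervals, with a limit of 3 counts for a count of 0. The interval of zone-weighted ratios is a normal approximation on the log scale. They cover counting error only, and the ratio interval was tested on simulated data. No test between libraries was made. Genes were counted at 1.5-fold where the libraries together gave 50 UMIs or more. Named genes are the 9 genes, *Wls*, pathway genes past 1.5-fold, the most abundant gene of each pathway group and the 3 genes most like *Ihh*, *Pthlh*, *Gli1* and *Pth1r*. *Bmx*, *Col2a1* and the genes compared inside or between zones were named after their values were seen. Members and lists were chosen with earlier results of these data known. Alternatives covered the total, the mean over cells, stricter cells, doublets, clustering settings, the WT labels, thinning, scaling and the minimum of UMIs. Zone weighting and leaving out the *Jun*-led zone were added after seeing the data. Gene positions are from GENCODE M21 and promoters from RefSeq. Python 3.11.15, numpy 2.4.6, scipy 1.17.1, pandas 2.3.3, R 4.3.3 and edgeR 4.0.16 (for TMM scaling factors of the counts) were used.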

Additional observations from a re-analysis of the deposited data

Results flagged for a closer look

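Units with at least 20 UMIs of a gene were searched for genes whose ratio between the libraries lay above 1 in one unit and below 1 in another, each beyond its counting interval. *Gli3* and *Pthlh* met this. With 1 library per genotype, the difference between units was not tested, and the search ran over 9 genes and 21 units, so some opposite pairs can arise from counting error.

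*Gli3* was lower in Bmx-CreER Wls in the *Hbegf*-led cluster (98 and 77 UMIs, ratio 0.654, 0.479 to 0.891) and in the *Stc1*-led zone (100 and 80 UMIs, 0.733, 0.539 to 0.993), and higher in the *Jun*-led zone (27 and 88 UMIs, 2.53, 1.63 to 4.05). *Pthlh* was lower in the *Hbegf*-led cluster (31 and 18 UMIs, 0.483, 0.255 to 0.891), and higher in the *Col8a1*-led zone (22 and 70 UMIs, 2.72, 1.66 to 4.61) and in the *Jun*-led zone (1 and 21 UMIs, 16.3, 2.62 to 673). The *Jun*-led zone, led by stress genes, is among the units of both genes, and its part in these values was not tested.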

How the results depend on the processing

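Of the library ratios of the 9 genes in chondrocyte-like cells, 104 values under other settings kept their direction and size, 3 moved and 1 reversed. The ratio of *Ihh*, 0.710 over the class, was 0.655 as a mean over cells and reversed to 1.03 with levels weighted over zones, where that of *Pth1r* was 0.878 against 0.623. The *Col10a1*-led zone, which holds most UMIs of both, was a smaller part of the class in Bmx-CreER Wls. The ratio of *Hhip* was 0.739 with 30 principal components, where 1 cluster at 1.99% chondrocyte markers was left out of the class. The 963 genes past 1.5-fold became 1603 with a minimum of 20 UMIs and 196 at 2-fold, which follows from these limits, and 713 with zone weights. Scaling by TMM or by the median of ratios changed the ratios by factors of 1.00184 and 1.00165. Levels moved under 24 settings of 153, and all 36 shares of cells with a UMI moved with thinning. No paired analysis was possible because each genotype has 1 library and the results come from no test. For the same reason no replicate could be left out. Depth limits *Ptch1* and *Pthlh* most, with 188 and 152 UMIs in WT.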

Other observations

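A few *Ihh* UMIs lay outside cartilage and bone cells in single cells. The *Fabp4*-led endothelial-like cluster had 11 in WT, in 2 of 513 cells, and 0 in Bmx-CreER Wls, and the *Hbegf*-led cluster had 0 in WT and 9 in Bmx-CreER Wls, all in 1 of 241 cells. Doublets were not removed, and their part in these counts was not tested. *Bmx* itself had 29 UMIs in WT and 70 in Bmx-CreER Wls in the *Gja5*-led arterial endothelial-like cluster (117.6 and 249 CPM, ratio 2.12, 1.36 to 3.39).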
